A study of Mus musculus with 24 samples.

Results

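The genes of MHC class I antigen presentation were followed through DMXAA-treated macrophages and dendritic cells of the mouse. The set held 10 of the 54532 genes in the expression table, picked by gene symbol alone: B2m, H2-K1, H2-D1, Tap1, Tap2, Tapbp, Psmb8, Psmb9, Nlrc5 and Erap1. The rule uses no expression value, and each symbol matched 1 row. Bone marrow-derived macrophages (BMDMs, cultured in L929-conditioned medium) and bone marrow-derived dendritic cells (BMDCs, cultured with GM-CSF and IL-4) came from tamoxifen-induced mice with a floxed Tmem173 gene. Tmem173 encodes STING, the adaptor of cytosolic DNA sensing. Libraries labelled WT carried Tmem173fl/fl alone, and those labelled CRE carried Tmem173fl/fl together with Lzym-Creert2, a tamoxifen-inducible Cre driven from the lysozyme M (Lyz2) gene of myeloid cells. Both labels therefore share the floxed allele and the tamoxifen. The treated cells were given DMXAA, which activates mouse STING. Its dose was 40 µM per the labels, while the methods text of the study gives the dose in µg/mL. The other cells served as controls. There were 8 groups (2 cell types, 2 labels and 2 treatments) of 3 polyA libraries, 24 in all. The methods of the study give ages for mice and an exposure time for other BMDC experiments, but neither these nor pooling of mice is stated for these libraries in the sources used here. Nothing says that the libraries of a group came from separate mice, so p-values measure the spread between libraries, which may be technical.

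MHC class I molecules display peptides from the cytosol to CD8+ T cells. The proteasome cuts proteins into peptides, and after interferon the catalytic subunits Psmb8, Psmb9 and Psmb10 replace the constitutive ones to form the immunoproteasome. The TAP transporter (Tap1 with Tap2) carries peptides into the endoplasmic reticulum, where Erap1 trims them and tapasin (Tapbp) bridges TAP to empty class I molecules. H2-K1 and H2-D1 are the classical heavy chains of C57BL/6 mice, and B2m is the light chain that every class I molecule needs. Nlrc5 is the transactivator that binds class I promoters. The pathway is known to respond to type I and type II interferon, and STING is an inducer of type I interferon.

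Total counts ran from 15657347 to 18912887 per library. The 4 BMDM libraries numbered 3, 1 in each group, stood apart. Their 8 macrophage markers summed to 42.5 to 71.6 counts scaled to library totals (CPM), against 9540 to 21300 in the other 8 BMDM libraries. Their 8 fibroblast markers summed to 14400 to 20600 CPM, against 54.5 to 718, and the 4 leukocyte markers to at most 1.26 CPM, against at least 1810. The macrophage label was thus borne out by its markers in numbers 1 and 2 only, and number 3 is given separately in all that follows. Both WT-labelled BMDM libraries numbered 2 held more fibroblast transcripts (718 and 640 CPM) than the other 6 (54.5 to 108). In BMDCs all 8 dendritic cell markers were present, at a sum of 5940 to 9930 CPM, beside macrophage markers at 2060 to 9110 CPM. The CRE-labelled BMDC libraries numbered 2 had the lowest macrophage sums (2200 and 2060 CPM) and the highest neutrophil sums (286 and 124 CPM, against at most 19.7 in the other 10). In bulk samples fewer cells of a type and less RNA per cell cannot be told apart.

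Library pairs were compared by a chi-square per gene, in which sampling noise alone gives a value near 1. CRE-labelled BMDM libraries 1 and 2 were close to each other, at 3.23 in control and 4.95 under DMXAA. A set of 4 BMDC pairs of opposite label were about as close, at 3.33 to 4.77, namely WT number 2 with CRE number 3 and WT number 3 with CRE number 1, in control and under DMXAA alike. The remaining pairs started at 14.2. All 3 CRE-labelled BMDC libraries in each treatment lay closer to a WT-labelled library than to any library of their own label. For CRE number 2 the closest library was WT number 1, at 110.6 in control and 87.65 under DMXAA. The closest of its own label was at 133.5 and 122.1. All of these values exceeded 1, and every library was counted. Tmem173 itself remained detectable in every CRE-labelled library. Its FPKM (fragments per kilobase of transcript, scaled to library size) was 28.8 to 55.3 in WT-labelled and 19.7 to 36.8 in CRE-labelled BMDCs, which overlap. In BMDMs 1 and 2 it was 14.7 and 9.91 (WT) and 10.4 and 8.76 (CRE) in control, which also overlap, and under DMXAA 31.8 and 22.8 (WT) against 9.12 and 10.1 (CRE), which do not. Groups are named by their labels throughout.

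All 10 class I genes rose with DMXAA in dendritic cells. In WT-labelled BMDCs all 10 genes were called higher (adjusted p under 0.05 in edgeR's quasi-likelihood test over 12126 genes), where 17% of all genes tested were called higher and 15.2% lower. CRE-labelled BMDCs gave the same count of 10 higher, against 14% of all genes higher and 11.4% lower. The median log2 fold change of the set was 1.48 in WT-labelled and 1.49 in CRE-labelled BMDCs, where the median over all genes tested was 0.00669 and -0.00802. No library of a DMXAA group overlapped its controls in FPKM for any of the 10 genes. In CPM this held for all but B2m in CRE-labelled BMDCs. The share of all genes tested that separated in this way is not given here. FPKM divides by an effective library size, 0.797 to 0.893 of the total count in treated BMDCs and 1.03 to 1.16 in controls. This raises treated FPKM values relative to CPM for every gene. Both responses were read against a scaling that centres the average gene. When counts were scaled by library total instead, the median of all genes moved to -0.357 and -0.341, and the set medians to 1.12 and 1.15. The share of called genes that were higher then moved from 52.7% to 26.4% in WT-labelled and from 55.2% to 26.4% in CRE-labelled BMDCs. B2m in CRE-labelled BMDCs lost its call under that scaling.

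In BMDMs the median change of the set was larger. WT-labelled BMDMs 1 and 2 had 10 of 10 genes called higher over 11569 genes tested, against a background of 18.4% higher and 20.7% lower, and the set median was 3.03 on the log2 scale. CRE-labelled BMDMs had 9 of 10 called higher, all but H2-D1, against 7.28% of genes higher and 2.72% lower, with a set median of 2.12. Scaling by library totals moved the median of all genes from -0.0794 to -0.589 (WT) and from -0.00989 to -0.237 (CRE), and the set medians to 2.52 and 1.89. The higher share of called genes moved from 47.1% to 20.4% and from 72.8% to 43.6%. In CRE-labelled BMDMs the calls of B2m and H2-K1 were lost when any 1 of the 4 libraries was left out. That of Erap1 was lost without control number 1. Each such fit leaves 1 library in a group, and calls over all genes fell in it as well. The set median then lay between 2.08 and 2.14. With number 3 included, 0 of 12980 genes were called in either label, and no fold change of the 10 reversed.

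**Figure D1:**
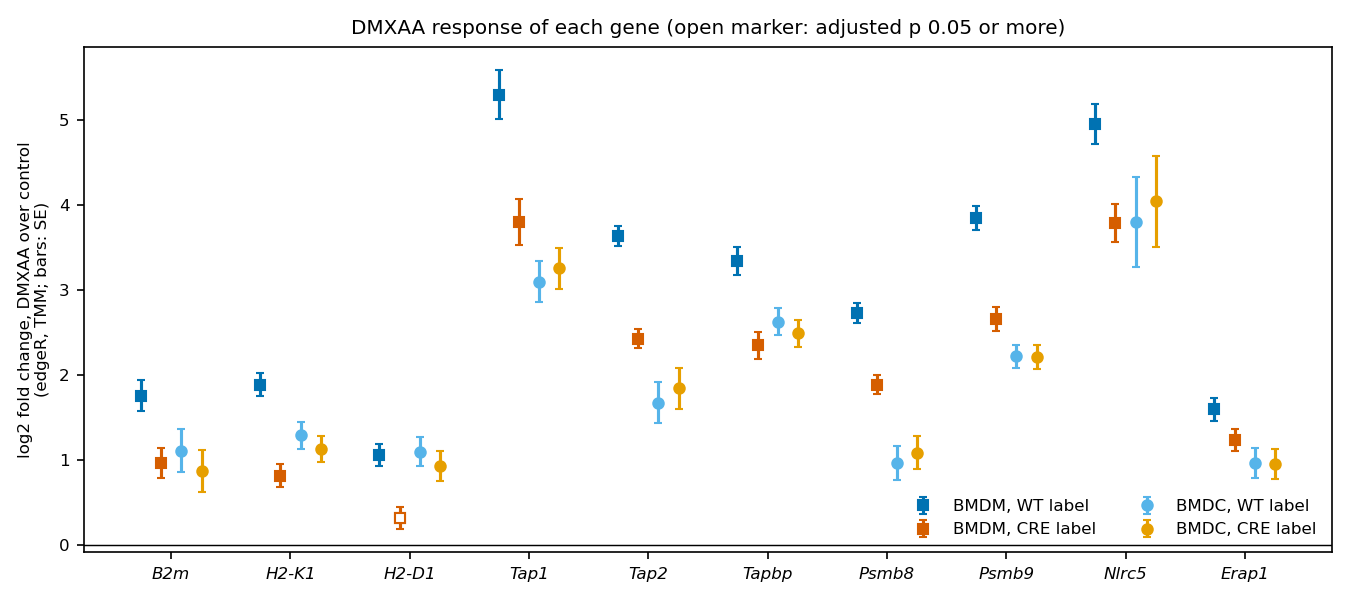
Log2 fold change of each of the 10 genes, DMXAA over control, from edgeR with TMM scaling. Squares are BMDMs 1 and 2 (2 libraries a group), circles BMDCs (3 libraries a group), bars the standard error, and an open marker an adjusted p of 0.05 or more. Tap1 and Nlrc5 rose most in every group, H2-D1 in CRE-labelled BMDMs (0.32) is the only open marker, and WT-labelled BMDMs lie above CRE-labelled BMDMs for all 10 genes.

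The class I molecule itself was abundant before treatment. B2m (ENSMUSG00000060802, chromosome 2, 122147686 to 122153083, plus strand), the light chain, had the highest FPKM of the set in all 8 groups. In WT-labelled BMDCs its FPKM was 2488, 2094 and 1929 in control and 5464, 5008 and 3843 under DMXAA. CRE-labelled BMDCs gave 1904, 3526 and 2346 in control and 3675, 5731 and 5044 with DMXAA. Each DMXAA library was above each control of its label, although CRE-labelled control number 2 came close to the lowest treated library. In CPM that control (3222) was above DMXAA number 1 (2818), so those groups overlap on that scale. The log2 fold changes were 1.11 ± 0.25 (SE, edgeR adjusted p = 0.0055) and 0.87 ± 0.25 (SE, edgeR adjusted p = 0.024). The second call was lost when any of 4 CRE-labelled libraries was left out (control 1 or 3, DMXAA 2 or 3), with adjusted p up to 0.099 over all alternatives. In BMDMs, B2m FPKM went from 1194 and 1655 to 5206 and 5222 in the WT-labelled pair and from 1597 and 1598 to 3034 and 3307 in the CRE-labelled pair. Treated WT-labelled BMDMs lay within the range of treated BMDCs, and treated CRE-labelled BMDMs below it. These log2 changes were 1.76 ± 0.18 (SE, edgeR adjusted p = 0.00057) and 0.97 ± 0.18 (SE, edgeR adjusted p = 0.02).

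Heavy chain genes sit in the MHC on chromosome 17. H2-K1 (ENSMUSG00000061232, chromosome 17, 33996017 to 34000333, minus strand) had an FPKM of 378, 443 and 431 in WT-labelled BMDC controls and 1004, 1070.1 and 1039 with DMXAA. CRE-labelled values were 414, 539.9 and 435, then 978, 971 and 1141. The treated libraries of both labels overlapped. BMDM values rose from 278 and 316 to 1275 and 1102 (WT) and from 305 and 320.5 to 540.2 and 578 (CRE). The log2 fold change was 1.29 ± 0.16 (SE, edgeR adjusted p = 0.00012) and 1.13 ± 0.16 (SE, edgeR adjusted p = 0.00037) in WT- and CRE-labelled BMDCs, and 1.89 ± 0.14 (SE, edgeR adjusted p = 0.00015) and 0.82 ± 0.13 (SE, edgeR adjusted p = 0.013) in BMDMs.

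H2-D1 (ENSMUSG00000073411, chromosome 17, 35262730 to 35267499, plus strand) was the higher of the heavy chains in every group. Its FPKM was 683, 692 and 729.6 in WT-labelled BMDC controls and 1493, 1588 and 1500.0 under DMXAA. In CRE-labelled BMDCs it was 687, 1018 and 709.5 in control and 1432, 1691 and 1555 with DMXAA. Control number 2 of the CRE label stood above the other 5 BMDC controls. WT-labelled BMDMs went from 773 and 919.6 to 1936 and 1871, and CRE-labelled BMDMs from 1027 and 1052 to 1266 and 1362. The treated CRE-labelled pair lay above its controls without passing the test, at 0.32 ± 0.13 (SE, edgeR adjusted p = 0.19), while the WT-labelled pair gave 1.06 ± 0.13 (SE, edgeR adjusted p = 0.0014). In BMDCs the values were 1.10 ± 0.17 (SE, edgeR adjusted p = 0.00066) and 0.93 ± 0.17 (SE, edgeR adjusted p = 0.0024). H2-K1 and H2-D1 are close relatives, and 0.957% and 3.59% of the 100-base windows of their transcripts also occur in transcripts of other genes, so a small part of their reads could be shared.

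The promoter stretches of these genes are shown because class I genes are classic carriers of the paired NF-κB and interferon-response elements of the class I enhancer. RefSeq promoter entries (GRCm38.p6, 250 bases before to 50 after the start) were found for 8 of the 10 genes, and Tap2 and Nlrc5 had none. In the stretches below, written 5′ to 3′ along the gene's strand, capitals mark the NF-κB consensus, the ISRE core of GAAA, 2 free bases and GAAA (B2m), the shorter IRF core AANNGAAA (H2-K1 and H2-D1) and CCAAT, each searched on both strands. The ISRE core contains the IRF core.
B2m, chr2:122147537-122147646, plus strand: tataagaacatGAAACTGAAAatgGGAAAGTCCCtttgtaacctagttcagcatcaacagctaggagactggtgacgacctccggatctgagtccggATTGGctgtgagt
H2-K1, chr17:34000349-34000477, minus strand: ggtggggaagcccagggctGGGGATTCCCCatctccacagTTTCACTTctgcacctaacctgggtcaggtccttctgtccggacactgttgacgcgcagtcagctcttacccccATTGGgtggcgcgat
H2-D1, chr17:35262923-35262952, plus strand: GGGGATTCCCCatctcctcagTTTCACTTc
The B2m stretch runs from 150 to 41 bases before the start and the H2-K1 stretch from 130 to 2 bases before it, both free of annotated exons. In B2m the ISRE core begins 139 bases before the start, followed by the NF-κB match at 126. The H2-D1 stretch, which overlaps 1 annotated exon, covers the 30 bases from 171 to 142 before its start, and it differs from the matching 30 bases of H2-K1 by the single substitution A18T, with H2-K1 as reference and positions counted from the first base of the NF-κB match. Among all 32851 promoter entries 8.46% held the NF-κB consensus, 3.44% the ISRE core, 23.9% the IRF core and 37.4% CCAAT. The genes below are counted by gene, with a match in any entry. Counted that way over 27025 genes, the shares were 9.55%, 3.99%, 26.7% and 41.1%, and 9.55% for the GAS motif named next. Of the 8 genes with an entry, 3 held the NF-κB consensus (B2m, H2-K1, H2-D1), 2 the ISRE core (B2m, Erap1), 4 the IRF core (B2m, H2-K1, H2-D1, Erap1), 6 CCAAT (B2m, H2-K1, H2-D1, Tap1, Tapbp, Psmb9) and 1 (Psmb8) the GAS motif TTCNNNGAA, which 8.3% of entries held. A match describes letters in this window and does not show binding.

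The peptide transporter genes were low in controls and rose strongly. Tap1 (ENSMUSG00000037321, chromosome 17, 34187553 to 34197225, plus strand) had an FPKM of 20.1, 20 and 18.8 in WT-labelled BMDC controls and 164, 172 and 177 after DMXAA. The CRE-labelled BMDCs went from 19.4, 10.6 and 19.5 to 175, 129.5 and 176, with number 2 lowest in both treatments. In BMDMs, Tap1 rose from 8.68 and 5.13 to 334 and 251 in the WT-labelled pair, a ratio of mean FPKM of 42.4, and from 8.22 and 8.02 to 113 and 116 in the CRE-labelled pair. That first ratio was the largest of the set in any group. In CPM it was 27.4, since the FPKM divides by an effective library size that was 0.687 and 0.771 of the total count in the treated WT-labelled BMDMs and 1.12 of it in their controls. Log2 fold changes were 3.10 ± 0.24 (SE, edgeR adjusted p = 4.6e-06) and 3.25 ± 0.24 (SE, edgeR adjusted p = 3.4e-06) in BMDCs, and 5.30 ± 0.29 (SE, edgeR adjusted p = 4.6e-05) and 3.80 ± 0.27 (SE, edgeR adjusted p = 0.00031) in BMDMs.

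Tap2 (ENSMUSG00000024339, chromosome 17, 34203527 to 34216321, plus strand), the partner chain, had FPKM values of 21.1, 24.9 and 25.0 in WT-labelled BMDC controls and 68.1, 84.1 and 78.2 under DMXAA. In the CRE-labelled ones they were 25.6, 14.0 and 24.2 in control and 81.0, 60.2 and 91.7 with DMXAA. Tap2 had the higher FPKM of the pair in each control library and Tap1 in each treated library. BMDM values were 9.45 and 9.54, then 133 and 122 with DMXAA (WT), and 9.72 and 9.90, then 53.5 and 53.8 (CRE). Its log2 fold change was 1.67 ± 0.24 (SE, edgeR adjusted p = 0.00038) and 1.84 ± 0.24 (SE, edgeR adjusted p = 0.00027) in BMDCs, against 3.64 ± 0.11 (SE, edgeR adjusted p = 7.6e-06) and 2.43 ± 0.11 (SE, edgeR adjusted p = 6.4e-05) in BMDMs. The ratio of Tap1 to Tap2 FPKM within a library, described here without a planned test, went from 0.835 ± 0.104 (SD, n = 3) to 2.23 ± 0.181 in WT-labelled BMDCs and from 0.775 ± 0.0286 to 2.08 ± 0.136 in CRE-labelled BMDCs. In BMDMs 1 and 2 it went from 0.538 to 0.918 in WT-labelled controls to 2.06 to 2.51 under DMXAA, and from 0.809 to 0.846 to 2.1 to 2.17 in the CRE-labelled pair.

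Tapbp (ENSMUSG00000024308, chromosome 17, 33915899 to 33929288, plus strand) encodes tapasin. WT-labelled BMDCs had 97.1, 79.3 and 86.1 FPKM in control and 618, 486 and 547 under DMXAA, and CRE-labelled BMDCs 86.3, 96.7 and 79.9 in control and 544, 466 and 492 with DMXAA. All 10 control values lay between 72.1 and 97.1 FPKM. WT-labelled BMDMs rose from 72.1 and 92.3 to 937 and 860.5, and CRE-labelled BMDMs from 93.8 and 89.7 to 469 and 480.1. Both treated WT-labelled BMDM libraries stood above every other library of the set for this gene. The log2 fold changes were 2.63 ± 0.16 (SE, edgeR adjusted p = 6.8e-07) and 2.49 ± 0.16 (SE, edgeR adjusted p = 1.0e-06) in BMDCs, 3.34 ± 0.16 (SE, edgeR adjusted p = 3.0e-05) in WT-labelled BMDMs and 2.35 ± 0.16 (SE, edgeR adjusted p = 0.00023) in CRE-labelled BMDMs.

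Immunoproteasome subunits lie beside the transporter genes in the MHC. Psmb8 (ENSMUSG00000024338, chromosome 17, 34197721 to 34201454, plus strand) had 59.7, 52.7 and 49.8 FPKM in WT-labelled BMDC controls and 124, 106 and 93.0 with DMXAA. CRE-labelled BMDCs had 48.1, 63.8 and 48.4 in control and 84.2, 141 and 121 with DMXAA. In BMDMs the start was lower and the end higher, from 25.5 and 25.5 to 192 and 174 in the WT-labelled pair, while the CRE-labelled pair went from 28.6 and 29.0 to 104 and 112. The log2 changes were 0.97 ± 0.20 (SE, edgeR adjusted p = 0.0032) and 1.09 ± 0.20 (SE, edgeR adjusted p = 0.0022) in BMDCs and 2.73 ± 0.12 (SE, edgeR adjusted p = 2.0e-05) and 1.88 ± 0.11 (SE, edgeR adjusted p = 0.00015) in BMDMs.

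Psmb9 (ENSMUSG00000096727, chromosome 17, 34181988 to 34187764, minus strand) had 15.0, 14.8 and 14.2 FPKM in WT-labelled BMDC controls and 75.3, 70.7 and 62.4 in the treated libraries. With the CRE label the values were 13.7, 13.9 and 15.0 in control and 57.9, 64.8 and 77.5 with DMXAA. All 6 BMDC controls lay between 13.7 and 15.0 FPKM. BMDMs rose from 6.24 and 5.39 to 96.6 and 84.0 (WT) and from 6.95 and 7.44 to 43.9 and 48.7 (CRE). Log2 fold changes were 2.22 ± 0.14 (SE, edgeR adjusted p = 9.4e-07) and 2.21 ± 0.14 (SE, edgeR adjusted p = 1.1e-06) in BMDCs and 3.85 ± 0.15 (SE, edgeR adjusted p = 1.3e-05) and 2.66 ± 0.14 (SE, edgeR adjusted p = 9.3e-05) in BMDMs. Psmb9 and Tap1 are transcribed away from each other, and their RefSeq starts lie 226 bases apart. Their annotated exons overlap on opposite strands by 212 bases, and Psmb8 (498 bases), Tap2 (533), Tapbp (904), Nlrc5 (78) and Erap1 (834) each overlap exons of a gene on the other strand. Whether counting used strand is not given in the sources used here, so reads from these stretches cannot be told apart. Tapbp also overlaps exons of Zbtb22 by 149 bases on its own strand, where strand would not separate reads.

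Nlrc5 (ENSMUSG00000074151, chromosome 8, 94434356 to 94527272, plus strand), the class I transactivator, was the lowest of the set in all control groups. FPKM in WT-labelled BMDCs was 2.63, 2.27 and 3.60 in control and 27.6, 35.1 and 57.4 under DMXAA, and in CRE-labelled BMDCs 3.29, 1.35 and 2.27 in control and 66.7, 17.4 and 31.8 with DMXAA. CRE-labelled number 2 was lowest in both treatments. WT-labelled BMDMs went from 1.77 and 1.52 to 66.1 and 43.9 and CRE-labelled BMDMs from 1.47 and 1.46 to 21.9 and 19.2. The log2 fold changes were 3.80 ± 0.53 (SE, edgeR adjusted p = 0.00029) and 4.04 ± 0.54 (SE, edgeR adjusted p = 0.00027) in BMDCs, and 4.95 ± 0.23 (SE, edgeR adjusted p = 2.7e-05) and 3.79 ± 0.22 (SE, edgeR adjusted p = 0.00015) in BMDMs.

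Erap1 (ENSMUSG00000021583, chromosome 13, 74639568 to 74693201, plus strand), the trimming aminopeptidase, was among the 4 lowest of the set in all groups. BMDC FPKM was 9.07, 7.10 and 7.31 in WT-labelled controls and 13.3, 16.4 and 16.7 after DMXAA, and 7.63, 8.19 and 7.28 in control and 18.4, 12.4 and 14.7 with DMXAA in the CRE label. The treated libraries were all above the controls, but by less than for the transporter. BMDM FPKM rose from 9.19 and 7.71 to 29.3 and 25.8 (WT) and from 8.70 and 9.24 to 22.3 and 20.8 (CRE). Log2 fold changes were 0.96 ± 0.18 (SE, edgeR adjusted p = 0.0017) and 0.95 ± 0.18 (SE, edgeR adjusted p = 0.0024) in BMDCs, and 1.60 ± 0.13 (SE, edgeR adjusted p = 0.00025) and 1.24 ± 0.13 (SE, edgeR adjusted p = 0.0021) in BMDMs. Its promoter entry is shown around the ISRE core, in capitals and read from the opposite strand, which begins 4 bases before the start.
Erap1, chr13:74639841-74639870, plus strand: accttcacTTTCACTTTCggtcccgggcgg

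**Figure D2:**
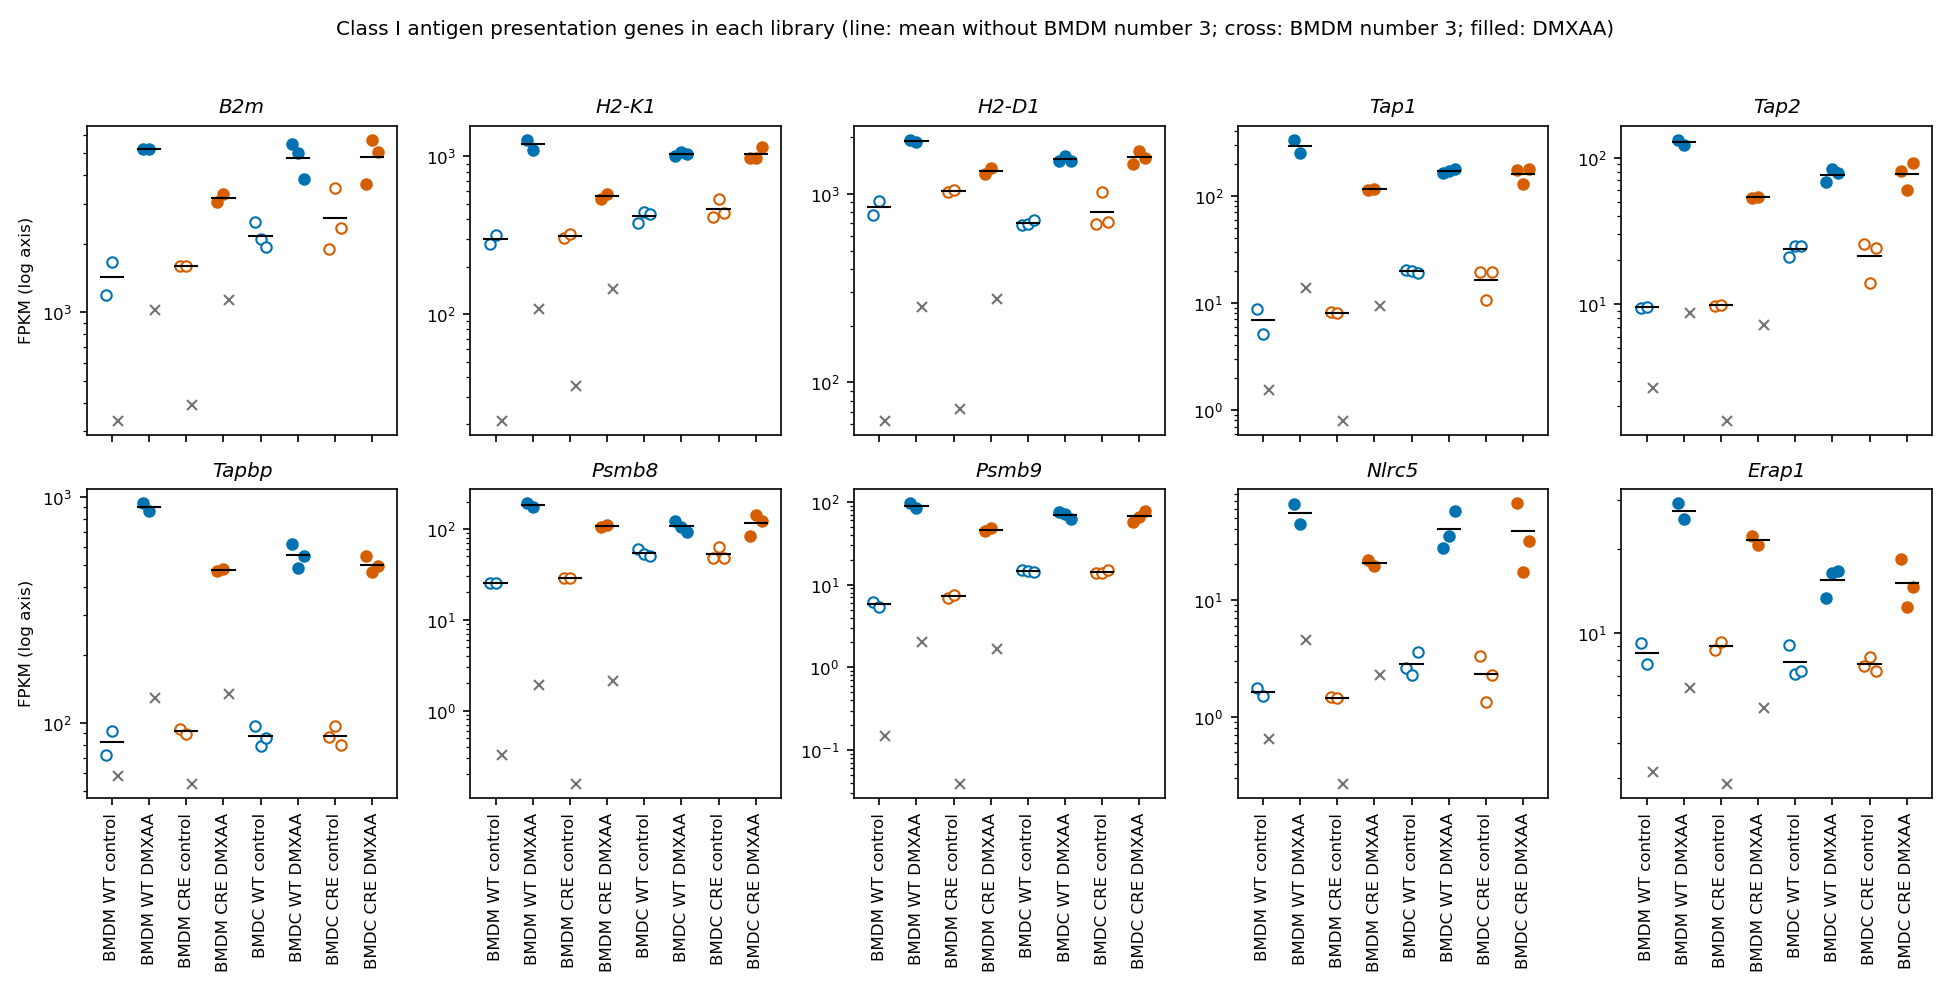
FPKM of each of the 10 genes in every library, on log axes, by cell type, label and treatment. Open circles are controls, filled circles DMXAA, grey crosses the BMDM libraries numbered 3, and lines the mean without them. Treated circles lie above the controls of their group for all 10 genes, and the crosses lie below numbers 1 and 2 of the same group in every panel.

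The order of levels shifted with treatment. In WT-labelled BMDC controls the order of mean FPKM was B2m, H2-D1, H2-K1, Tapbp, Psmb8, Tap2, Tap1, Psmb9, Erap1 and Nlrc5, with no overlap between neighbours. Under DMXAA Tap1 stood above Psmb8 and Tap2, Nlrc5 stood above Erap1, and only the neighbours Tap2 and Psmb9 overlapped. In WT-labelled BMDM controls Erap1, Tap1 and Psmb9 overlapped in turn, and under DMXAA the order was B2m, H2-D1, H2-K1, Tapbp, Tap1, Psmb8, Tap2, Psmb9, Nlrc5 and Erap1, with no overlap. Treated CRE-labelled BMDMs kept Erap1 just above Nlrc5, and those neighbours overlapped.

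The immunoproteasome ratio within a library does not depend on how libraries are scaled. Psmb8, Psmb9 and Psmb10 were therefore divided by the constitutive subunits they replace, Psmb5, Psmb6 and Psmb7. In WT-labelled BMDCs the Psmb9 to Psmb6 ratio of FPKM was 0.187 ± 0.0217 (SD, n = 3) in control and 0.517 ± 0.0388 under DMXAA, a log2 difference of 1.47. Psmb8 to Psmb5 went from 0.374 ± 0.0514 to 0.717 ± 0.157 (log2 difference 0.926). Psmb10 to Psmb7 went from 3.08 ± 0.241 to 9.88 ± 1.27 (log2 difference 1.67). CRE-labelled BMDCs gave log2 differences of 1.56, 1.06 and 1.66 in the same order. All treated libraries were above all controls of their label for these 3 ratios, and the exact permutation test, two-sided, gave p = 0.1 for each of the 6 comparisons, the smallest that 3 against 3 allows.

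BMDM ratios are given as values, without a test. In WT-labelled BMDMs Psmb9 to Psmb6 went from 0.0737 and 0.0361 in control to 0.499 and 0.417, and in CRE-labelled BMDMs from 0.073 and 0.0727 to 0.376 and 0.363. Psmb8 to Psmb5 went from 0.266 and 0.158 to 1.69 and 1.07 (WT) and from 0.262 and 0.254 to 0.997 and 0.974 (CRE). Psmb10 to Psmb7 went from 2.42 and 1.71 to 19.7 and 20.9 (WT) and from 2.76 and 2.49 to 13.9 and 12.4 (CRE). BMDMs started below BMDCs in each ratio and, with DMXAA, the WT-labelled pair ended above all BMDCs for Psmb8 to Psmb5 and Psmb10 to Psmb7 but not for Psmb9 to Psmb6. The H2-K1 to H2-D1 ratio, a description added after the data were seen, went from 0.36 and 0.344 to 0.659 and 0.589 in WT-labelled BMDMs and from 0.297 and 0.305 to 0.427 and 0.425 in CRE-labelled BMDMs.

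**Figure D3:**
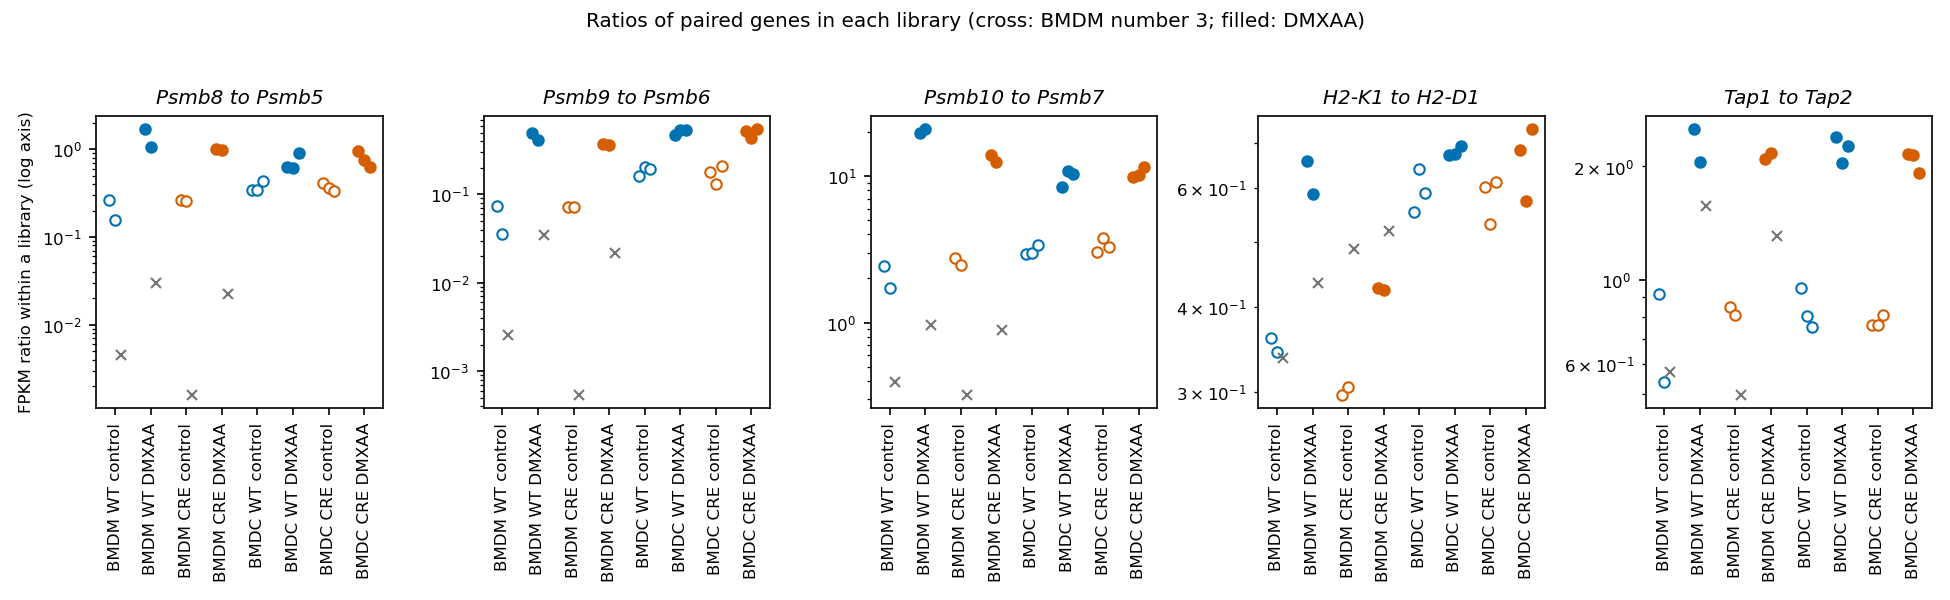
FPKM ratios of paired genes within each library, on log axes. Open circles are controls, filled circles DMXAA and grey crosses BMDM number 3. The 3 immunosubunit ratios and the Tap1 to Tap2 ratio are higher in all treated libraries than in the controls of their group, whereas H2-K1 to H2-D1 overlaps between control and DMXAA in CRE-labelled BMDCs.

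Whether the CRE label changed these responses was examined next, since Cre is meant to delete STING, the target of the agonist. In treated BMDMs the set was lower with the CRE label. There, 9 of the 10 genes were called lower than in WT-labelled BMDMs, all but Erap1, where 9.26% of all genes were called higher and 9.99% lower, and the median log2 difference was -0.894. The differences were -1.37 ± 0.20 (SE, edgeR adjusted p = 0.0062) for Nlrc5, -1.30 ± 0.25 (SE, edgeR adjusted p = 0.014) for Tap1 and -1.20 ± 0.10 (SE, edgeR adjusted p = 0.0014) for Tap2. Psmb9 (immunosubunit) differed by -0.92 ± 0.13 (SE, edgeR adjusted p = 0.0059), Psmb8 by -0.71 ± 0.11 (SE, edgeR adjusted p = 0.0071) and Tapbp by -0.87 ± 0.15 (SE, edgeR adjusted p = 0.011). Among class I chains H2-K1 differed by -1.04 ± 0.13 (SE, edgeR adjusted p = 0.0043), B2m by -0.67 ± 0.17 (SE, edgeR adjusted p = 0.04) and H2-D1 by -0.49 ± 0.13 (SE, edgeR adjusted p = 0.046). Erap1 was at -0.31 ± 0.13 (SE, edgeR adjusted p = 0.15). Both treated CRE-labelled libraries lay below both WT-labelled ones for all 10 genes. The share of all genes that separated in this way is not given here, and 2 libraries a group separate easily. In control BMDMs 4 of the 10 genes separated as higher and 1 as lower with the CRE label in FPKM.

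The calls depended on single libraries. Most of the 9 calls were lost when either treated CRE-labelled library was left out, and some without WT-labelled DMXAA number 1 or 2. Each such fit leaves 1 library in a group. Calls over all genes also fell without either treated CRE-labelled library or WT-labelled DMXAA number 1, and rose without number 2. The median log2 difference of the set then lay between -0.96 and -0.825. Macrophage markers also differed by label: they summed to 19300 and 21300 CPM in WT-labelled and 12600 and 12800 CPM in CRE-labelled control BMDMs, and to 11500 and 13200 CPM and 9540 and 9660 CPM in the treated ones. These sums were thus lower with the CRE label in both treatments and lower with DMXAA in both labels. The median CPM of the same markers did not follow the sums throughout. In control it was 769 and 902 with the WT label and 664 and 663 with the CRE label. Under DMXAA it was 1030 and 871 with the WT label and higher, 1120 and 1130, with the CRE label. The part of these markers in these responses and differences was not tested. Without both WT-labelled libraries numbered 2, 10 of 10 were called lower, in a fit that called 6145 of 11569 genes (2227 with them) and in which only the close CRE-labelled pairs were left to estimate the spread. Scaling by library totals kept 7 calls (B2m and H2-D1 were lost), moved the median of all genes from 0.00697 to 0.242 and the higher share of called genes from 48.1% to 70.9%. With number 3 included 0 of 12980 genes were called.

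In BMDM controls 0 of 10 genes were called between labels in edgeR, while 5 of 11569 genes passed (0.0432%) and the unadjusted p lay under 0.05 for 793. DESeq2 called 126 genes and none of the 10. Log2 differences of the set ran from -0.205 to 0.27. The response itself was then compared between labels. The CRE-labelled response was smaller for 4 called genes, with log2 differences of the responses (CRE minus WT) for H2-K1 of -1.07 ± 0.19 (SE, edgeR adjusted p = 0.036), Tap2 of -1.21 ± 0.15 (SE, edgeR adjusted p = 0.019), Psmb8 of -0.85 ± 0.15 (SE, edgeR adjusted p = 0.039) and Psmb9 of -1.19 ± 0.19 (SE, edgeR adjusted p = 0.028). Over all genes 1.38% were called higher and 2.28% lower. The estimates of the other 6 were also below 0, from -1.5 (Tap1, edgeR adjusted p = 0.07) to -0.36 (Erap1, adjusted p = 0.34).

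Which genes passed this interaction test depended on single libraries. The calls were lost when any 1 of the 4 CRE-labelled BMDM libraries was left out, and most were lost without WT-labelled DMXAA number 1. More of the set were called without WT-labelled control 2 or DMXAA 2. Calls over all genes fell and rose in the same fits, each of which leaves 1 library in a group. The set median stayed between -1.11 and -0.898 with any 1 library left out. Without both WT-labelled libraries numbered 2, the ones with more fibroblast transcripts, 10 genes were called. That fit, in which again only the CRE-labelled pairs estimate the spread, called 5334 of 11569 genes (424 with them). DESeq2 called 9. Scaling by library totals moved the median of all genes from 0.0391 to 0.322 and the higher share of called genes from 37.7% to 66.7%, and 3 of the 4 calls held. With number 3 included 0 of 12980 genes were called.

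In BMDCs the label gave no called difference in the set. Under DMXAA 0 of 10 genes were called between labels and 0% of 12126 genes were, with 108 genes at an unadjusted p under 0.05 in edgeR, none of them in the set, and 0 calls in DESeq2. In control no member passed either (0% of all genes), the unadjusted p lay under 0.05 for 99 genes, and DESeq2 called 0. The interaction gave 0 calls (0% of all genes), with an unadjusted p under 0.05 for 60 genes, and DESeq2 called 1 gene outside the set. Log2 differences under DMXAA ran from -0.125 to 0.116 over the set. Their 95% intervals were -0.34 to 0.34 for H2-K1, -0.34 to 0.25 for Psmb9, -0.57 to 0.40 for Tap1 and, the widest, -1.08 to 0.99 for Nlrc5, so differences within these bounds remain possible. Without the CRE-labelled libraries numbered 2 the counts stayed at 0. The counts of 108, 99 and 60 of 12126 genes lie below the share of 0.05 that no true difference would give on average. These tests were thus conservative, and 0 calls do not show that the labels were alike. The 4 close pairs across labels enter all of these comparisons, and the model of group means held no term for them. Their part in these counts was not tested.

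**Figure D4:**
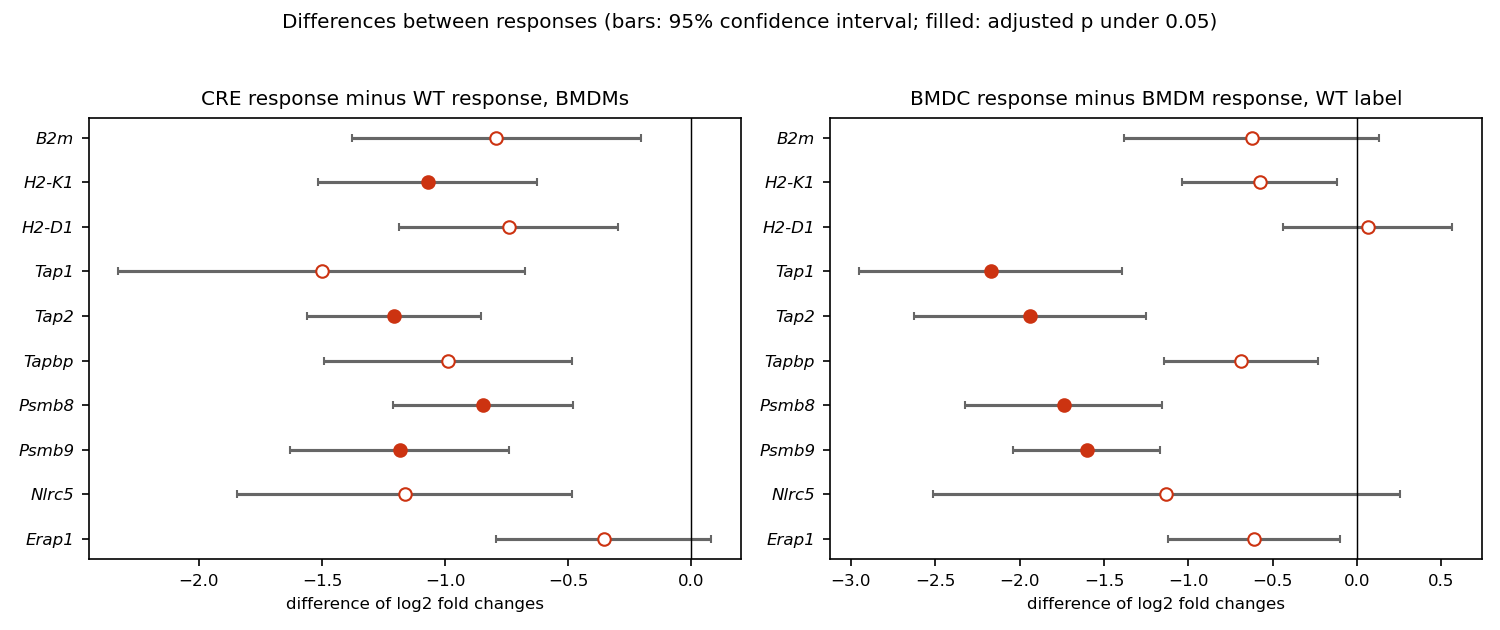
Differences between log2 fold changes for each gene. The left panel plots the CRE-labelled minus the WT-labelled response in BMDMs 1 and 2, and the right panel the BMDC minus the BMDM response in WT-labelled cells. Bars are 95% confidence intervals and filled points have an adjusted p under 0.05. All 10 points on the left lie below 0 and 4 are filled, and on the right Tap1 (-2.17) is lowest and H2-D1 (0.06) lies just above 0.

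Among WT-labelled controls 5 of 10 genes were called higher in BMDCs than in BMDMs and 0 lower, against 13.1% of 13368 genes higher and 15.4% lower. These were Tap1 at 1.45 ± 0.27 (SE, edgeR adjusted p = 0.00079), Psmb9 at 1.28 ± 0.15 (SE, edgeR adjusted p = 1.4e-05), Tap2 at 1.26 ± 0.24 (SE, edgeR adjusted p = 0.00085), Psmb8 at 1.02 ± 0.20 (SE, edgeR adjusted p = 0.0011) and H2-K1 at 0.43 ± 0.16 (SE, edgeR adjusted p = 0.047). The call for H2-K1 did not hold in 9 of 14 alternatives, among them leaving out WT-labelled BMDC control 2 or 3 or BMDM control 1 or 2. The remaining estimates were B2m 0.55 ± 0.25, Nlrc5 0.73 ± 0.47, Tapbp 0.03 ± 0.15, Erap1 -0.17 ± 0.17 and H2-D1 -0.33 ± 0.17 (SE).

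In WT-labelled treated cells 0 genes of the set were called higher in BMDCs and 5 lower, where 15.3% of all genes were called higher and 15.3% lower. The lower genes were Erap1 at -0.78 ± 0.17 (SE, edgeR adjusted p = 0.0024), Tap1 at -0.73 ± 0.25 (SE, edgeR adjusted p = 0.039), Psmb8 at -0.72 ± 0.19 (SE, edgeR adjusted p = 0.0096), Tap2 at -0.68 ± 0.22 (SE, edgeR adjusted p = 0.03) and Tapbp at -0.66 ± 0.15 (SE, edgeR adjusted p = 0.0037). Tap1 and Tap2 lost their calls under scaling by library totals, which left 3 and moved the median of all genes from 0.0384 to 0.207 and the higher share of called genes from 50.1% to 65.0%. Tap1 also lost its call without any of WT-labelled DMXAA BMDCs 1, 2 or 3 or BMDM 1, Tap2 without BMDC 1 or BMDM 1 or 2, and Psmb8 without BMDM 1.

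The response was smaller in BMDCs for 4 genes of the set, against 1.73% of genes with a smaller and 0.883% with a larger change. These were Tap1 at -2.17 ± 0.37 (SE, edgeR adjusted p = 0.0043), Tap2 at -1.94 ± 0.32 (SE, edgeR adjusted p = 0.0041), Psmb8 at -1.74 ± 0.27 (SE, edgeR adjusted p = 0.0033) and Psmb9 at -1.60 ± 0.20 (SE, edgeR adjusted p = 0.00057), which are neighbours in the MHC. The other estimates ran from -1.13 for Nlrc5 to 0.06 for H2-D1. The 4 calls held when any single library was left out. They also held without the WT-labelled BMDMs numbered 2 and when scaled by library totals (median of all genes from 0.0782 to 0.199, higher share of called genes from 33.8% to 44.9%). With all 24 libraries 0 of 14424 genes were called. Cell type was confounded with culture medium, so these cannot be told apart.

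The BMDM libraries numbered 3, with fibroblast rather than macrophage transcripts, showed a rise of their own. Each label had 1 control and 1 treated library, so no test was made between them, and the intervals below are exact binomial 95% intervals that cover counting error only. The set's median log2 ratio of CPM, DMXAA over control, was 2.19 in the WT-labelled pair (range 1.01 to 3.76) and 2.13 in the CRE-labelled pair (range 0.942 to 5.46). Absolute levels were low. B2m FPKM was 333 and 1019 (WT) and 392 and 1135 (CRE), and Tap1 FPKM 1.52 and 13.7, and 0.793 and 9.39. Immunosubunit counts were low in control. Psmb9 had 13 and 179 counts in control and DMXAA with the WT label, a log2 ratio of 3.76 (2.95 to 4.70). With the CRE label Psmb9 had 3 and 149 counts in control and DMXAA, a log2 ratio of 5.46 (3.89 to 7.76). Psmb8 had 21 and 127 counts in control and DMXAA (WT, log2 ratio 2.58, 1.90 to 3.32) and 9 and 143 counts in control and DMXAA (CRE, 3.82, 2.85 to 4.98). Erap1 changed least, with log2 ratios of 1.01 (0.862 to 1.16) and 0.942 (0.778 to 1.11). The Psmb8 to Psmb5 ratio of FPKM reached 0.0297 and 0.0221 under DMXAA, below every control of BMDMs 1 and 2.

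Other genes of the pathway, in lists set up beside the 10, were described in the same fits. Their counts are to be read against the share of all genes called higher, 17% and 18.4% in WT-labelled BMDCs and BMDMs and 14% and 7.28% in CRE-labelled ones, and the share called lower, 15.2% and 20.7%, and 11.4% and 2.72%. Among proteasome partners 3 of 5 were called higher in WT-labelled BMDCs and 4 of 5 in WT-labelled BMDMs, 0 lower. Those called in both were Psmb10 and the activator subunits Psme1 and Psme2, and the fourth in BMDMs was the assembly factor Pomp. Psme1, Psme2, Pomp and the called subunits Psma2, Psma3, Psma4 and Psmb2 below are named after their values were seen. CRE-labelled BMDCs and BMDMs had 3 of 5 each. Psmb10, the third immunosubunit, changed by 1.95 ± 0.24 (SE, edgeR adjusted p = 0.00014) in BMDCs and 3.74 ± 0.12 (SE, edgeR adjusted p = 8.3e-06) in BMDMs, while the activator subunit Psme3 was at -0.23 ± 0.13 and -0.03 ± 0.12. Of the 3 constitutive catalytic subunits 1 was called higher in BMDCs, Psmb6 at 0.74 ± 0.19 (SE, edgeR adjusted p = 0.011), and 0 in BMDMs, with Psmb5 at 0.06 ± 0.31 and -0.01 ± 0.28. Among 11 other 20S core subunits 2 were called higher in BMDCs (Psma4, Psma5) and 5 in BMDMs (these, Psma2, Psma3 and Psmb2), 0 lower, of which the BMDC count is near the 17% of all genes. Psma5 rose by 1.0 ± 0.23 (SE, edgeR adjusted p = 0.0057) in BMDCs and 1.68 ± 0.13 (SE, edgeR adjusted p = 0.00019) in BMDMs, while Psmb3 was at 0.13 ± 0.17 and 0.11 ± 0.15.

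Of 5 loading and folding genes, 1 was called higher in each of the 4 responses, Tapbpl (TAPBPR, a peptide editor), by 3.43 ± 0.26 (SE, edgeR adjusted p = 3.5e-06) in WT-labelled BMDCs and 4.09 ± 0.21 (SE, edgeR adjusted p = 3.7e-05) in WT-labelled BMDMs. Calnexin (Canx) was at -0.02 ± 0.14 and 0.06 ± 0.11, and 1 of the 5, the folding sensor Uggt1, was called lower in WT-labelled BMDMs at -0.51 ± 0.15 (SE, edgeR adjusted p = 0.034), a gene named after its values were seen. Counts of 1 in 5 are near the shares of all genes and say nothing about the list. Among the 14 non-classical class I genes, 11 passed the filter on low values (H2-Q1, H2-Q2 and H2-Q10 did not). In WT-labelled cells 9 of these were called higher in BMDCs and 9 in BMDMs, 0 lower, and in CRE-labelled cells 9 and 5. H2-T24 changed most, by 4.08 ± 0.45 (SE, edgeR adjusted p = 6.2e-05) and 5.91 ± 0.56 (SE, edgeR adjusted p = 0.00043), and Cd1d1, which presents lipids, was at 0.28 ± 0.16 and -0.31 ± 0.20. These genes are near relatives of the heavy chains and could share reads with them. Of 5 other peptidases 3 were called higher in each WT-labelled cell type (Lap3, Lnpep and Npepps, the last 2 named after their values were seen), with Lap3 at 2.15 ± 0.26 (SE, edgeR adjusted p = 0.00011) in BMDCs and Blmh at 0.13 ± 0.12.

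Of 13 transcription factors linked to class I genes, 6 were called higher and 0 lower in WT-labelled BMDCs, and 7 higher and 2 lower in WT-labelled BMDMs (all genes: 17% and 15.2%, and 18.4% and 20.7%). Irf1, an interferon-induced activator of class I promoters, rose by 4.37 ± 0.30 (SE, edgeR adjusted p = 1.7e-06) in WT-labelled BMDCs, 4.05 ± 0.30 (SE, edgeR adjusted p = 2.9e-06) in CRE-labelled BMDCs, 4.77 ± 0.16 (SE, edgeR adjusted p = 1.1e-05) in WT-labelled BMDMs and 2.53 ± 0.15 (SE, edgeR adjusted p = 0.00015) in CRE-labelled BMDMs. Its FPKM was 190.4 and 200.3 in treated WT-labelled BMDMs and 42.0 and 46.1 in treated CRE-labelled BMDMs, a log2 difference of -2.10 ± 0.15 (SE, edgeR adjusted p = 0.0011). Its response in BMDMs differed between labels (CRE minus WT) by -2.25 ± 0.20 (SE, edgeR adjusted p = 0.01). Nfyc, a CCAAT-binding subunit, was at -0.02 ± 0.13 in WT-labelled BMDCs and -0.50 ± 0.14 (SE, edgeR adjusted p = 0.026) in WT-labelled BMDMs. In the BMDM label comparison under DMXAA, 5 of these 13 factors were called lower (Irf1, Irf2, Irf9, Rfx5 and Ciita) and 1 higher (Rfxap), 3 of 5 proteasome partners lower (Psmb10, Psme1 and Psme2), and 6 of 11 non-classical genes lower and 1 higher (Mr1), where 9.99% of all genes were called lower and 9.26% higher. All of these but Irf1 and Psmb10 were named after their values were seen, as was Rfxap, which with Nfyc made up the 2 factors called lower in the WT-labelled BMDM response.

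**Figure D5:**
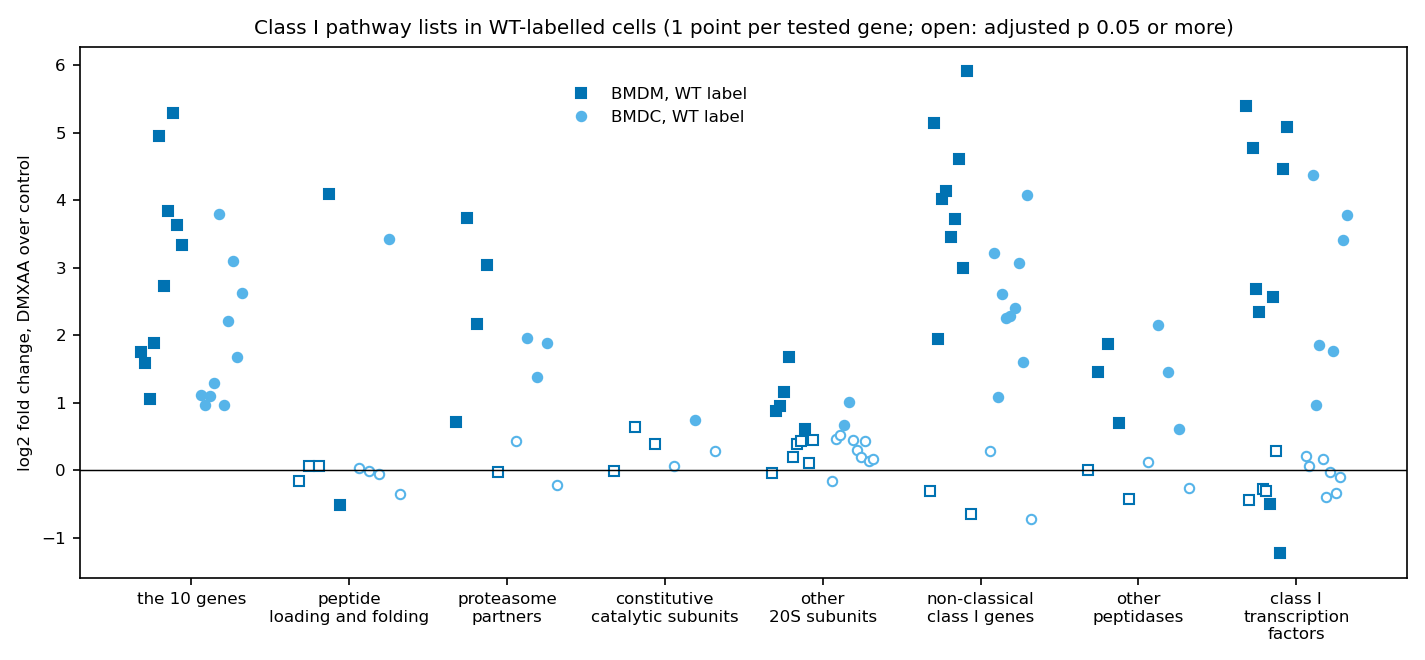
Log2 fold change, DMXAA over control, of each tested gene in the pathway lists, in WT-labelled BMDMs 1 and 2 (squares) and BMDCs (circles). Filled points have an adjusted p under 0.05. The 10 genes are all filled and above 0, the constitutive catalytic subunits lie between -0.0118 and 0.744, and most non-classical class I genes lie above 1.

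The 10 genes were described by how their levels varied between libraries. Over the 20 libraries without BMDM number 3, Pearson correlations of log2 CPM within the set ran up to 0.99 (Tap1 with Psmb9) and down to 0.684 (B2m with Erap1), over points that share the treatment contrast. After group means were removed, the 12 BMDC libraries gave 0.927 for Tap1 with Tap2 and 0.912 for B2m with Psmb8, but -0.915 for B2m with Nlrc5, -0.937 for Psmb8 with Nlrc5 and -0.908 for H2-D1 with Tap1. CRE-labelled BMDC number 2 had the highest B2m, H2-D1 and Psmb8 and the lowest Tap1, Tap2 and Nlrc5 FPKM of the BMDC controls, and it is the number with the low macrophage and high neutrophil marker sums. The part of these markers in the correlations was not tested. The genes outside the set whose log2 CPM followed its mean most closely over the 20 libraries were H2-T22 (Pearson r = 0.9967), Rnf114 (0.9949), Parp9 (0.9943), Batf2 (0.9917) and Tnfsf10 (0.9917). These are descriptions over libraries that share the treatment contrast, without a p.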

How the data were processed

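PolyA RNA-seq of 24 mouse libraries was analysed from 1 deposited table of 54532 genes. It held raw read counts per gene and FPKM values for each library, both made by the authors. The submitters' processing notes name CASAVA 1.8, fastp, HISAT2 2.0.5, featureCounts 1.5.0-p3, DESeq2 1.20.0 and the GRCm38/mm10 build. Strand setting in counting is not given in the sources used here. The deposited FPKM used an effective library size (0.687 to 1.33 times the total count). Columns of the authors' comparisons (group means, fold changes and p-values) were not used. Coordinates are those of the table; 53499 of the 54409 genes found in GENCODE vM21 had equal ones.

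Counts were tested with edgeR 4.0.16 (R 4.3.3; TMM scaling, quasi-likelihood F test, two-sided, Benjamini-Hochberg over all genes tested, called under 0.05). Genes were kept where FPKM reached 1 in 3 or more libraries (BMDC fit), or in 2 or more (BMDM fit of 8 libraries, fit of both types with 20). BMDM libraries numbered 3 were kept out of these fits. The 13 comparisons share groups, so controls enter several of them. Group means alone were modelled. Ratios were compared in Python 3.11.15 with scipy 1.17.1. In simulated counts with 200 genes changed 4-fold, 77.5% were recovered among 12126 genes (WT BMDC response) and 77.5% among 11569 (WT BMDM response).

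The 10 genes, the pathway lists and the tests were chosen with earlier results of these data known. Named besides the 10 were, in each list, the genes of largest and smallest absolute log2 fold change in WT-labelled BMDCs, and the 5 genes most correlated with the mean of the set. Alternatives were DESeq2 1.42.0, other scalings and filters, all libraries, the compared groups alone, a replicate block and leaving out each library. Scaling by total counts, leaving out both libraries of a number that stood apart by markers, the paired fit of all 12 BMDM libraries, the IRF core and the H2-K1 to H2-D1 and Tap1 to Tap2 ratios were added after the data were seen. Same-numbered BMDC libraries of 1 label deviated together from their group means (correlations 0.373 to 0.665), so numbers pair control with DMXAA within a label, as a reading from the data. Across labels the correlations of same-numbered BMDC libraries were -0.494 to 0.0577. Those of different number ran from -0.444 to 0.646, the highest for WT-labelled DMXAA number 3 with CRE-labelled DMXAA number 1. Some libraries thus deviated together across labels. Total counts of 15657347 to 18912887 per library set the precision, and 95% intervals on counts of single libraries cover counting error only.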

Additional observations from a re-analysis of the deposited data

Results flagged for a closer look

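The CRE-labelled response of BMDMs 1 and 2 to DMXAA differed from the WT-labelled response in the interaction test for 4 genes of the set. The log2 differences of the responses (CRE minus WT) were -1.07 for H2-K1, -1.21 for Tap2, -0.847 for Psmb8 and -1.19 for Psmb9. These calls were lost when any 1 of the 4 CRE-labelled libraries was left out, and most of them without WT-labelled DMXAA number 1. Each such fit leaves 1 library in a group, and calls over all genes fell in it as well.

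Between cell types, the WT-labelled response was smaller in BMDCs than in BMDMs 1 and 2 for 4 genes. The log2 differences of the responses (BMDC minus BMDM) were -2.17 for Tap1, -1.94 for Tap2, -1.74 for Psmb8 and -1.6 for Psmb9. These calls held when any 1 library was left out, and 0 were called with all 24 libraries.

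The BMDM libraries numbered 3 lay outside the comparisons, and the set was above its control level in both of their treated libraries. The median log2 ratio of CPM, DMXAA over control, was 2.19 with the WT label and 2.13 with the CRE label, from 1 library a treatment and without a test.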

How the results depend on the processing

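Of the counts of called genes and the ratios, 104 of 118 values under other settings and 114 of 127 with a library, or both of a number, left out stayed close to the reported one (a count within 1.5 times, a ratio within 1 SD). With all 12 BMDM libraries, 0 genes were called in the WT- and CRE-labelled responses, the label comparison under DMXAA and the BMDM interaction, and with all 24 libraries 0 in the 3 cell type comparisons. With a replicate block within genotype added to all 12, the counts were 9 (WT response), 5 (CRE response) and 0 (interaction). Those fits called 403, 117 and 2 of 12980 genes in all. The BMDM interaction called 424 genes in all as reported, 1195 with DESeq2 and 1342 without a filter on low counts. With a replicate block it called 450, and with a replicate block within genotype 1702. Of the set, the interaction had 4 genes as reported, and then 9, 7, 6 and 9 in that order. Without both WT-labelled BMDMs numbered 2 it had 10 and the BMDM label comparison in control had 3, where 5334 and 2520 of 11569 genes were called in all (424 and 5 with them). BMDCs under DMXAA against BMDMs had 3 genes under total-count scaling and 2 with the compared groups alone, against 5. The cause of these changes was not tested. Same-numbered BMDM control and DMXAA libraries correlated at 0.638 in the WT label and 0.033 in the CRE label. Across labels same-numbered BMDM libraries gave -0.00381 to 0.0628, so not every pair deviated together. The block changed no BMDC count of the set. It follows library numbers, so it cannot account for the close BMDC pairs across labels, whose numbers differ.

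With 1 library or both of a number left out, the counts ranged from 10 to 10 (WT BMDC response), 9 to 10 (CRE BMDC), 10 to 10 (WT BMDM), 6 to 7 (CRE BMDM), 1 to 10 (label under DMXAA, BMDM), 0 to 3 (label in control, BMDM), 0 to 10 (BMDM interaction), 4 to 5 (cell type, control), 2 to 4 (cell type, DMXAA) and 4 to 4 (cell type interaction). Leaving out a BMDM library leaves 1 in its group, and calls over all genes changed in these fits too. Log2 ratio differences ranged from 0.753 to 1.04 and 0.898 to 1.21 (Psmb8 to Psmb5, WT and CRE), 1.38 to 1.54 and 1.37 to 1.71 (Psmb9 to Psmb6), and 1.61 to 1.79 and 1.58 to 1.74 (Psmb10 to Psmb7).

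Estimates that changed sign were all uncalled. In control BMDCs against BMDMs these were H2-D1 (0.245) and Erap1 (0.221) with all 24 libraries, and Tapbp without WT-labelled BMDC control 1 (-0.0413) or BMDM control 1 (-0.116). Under DMXAA they were B2m (0.0857) and H2-K1 (0.0343) under total-count scaling, B2m (0.318), H2-K1 (0.323), H2-D1 (0.173), Psmb9 (0.188) and Nlrc5 (0.071) with all 24 libraries, and B2m without WT-labelled BMDC DMXAA 3 (0.0307). In the cell type interaction H2-D1 was -0.00606 with DESeq2 and with median of ratios scaling, -0.0719 with all 24 libraries, -0.0451 without BMDC DMXAA 2, -0.11 and -0.0116 without BMDM control 2 or DMXAA 2, and -0.16 without both. With 1 library left out at a time, Tapbp in control ranged from -0.116 to 0.263, B2m under DMXAA from -0.192 to 0.0307 and H2-D1 in the interaction from -0.11 to 0.162, and the BMDM interaction count was 8 without WT-labelled control 2.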
